A study of Danio rerio with 2 samples.

Results

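The genes described are 9 that encode proteins of the cartilage matrix or proteins that chondrocytes release into or display towards it: *acana* and *acanb*, *matn1*, *matn3a*, *matn3b* and *matn4*, *snorc*, *cnmd* and *mia*. They were chosen by symbol from the 36355 features of the count matrices, each symbol names 1 row, and all 9 were found. The cells came from 50 pooled, dissected jaw joints of 3-month-old zebrafish that all carried both the *sox10:DsRed* and the *trps1:eGFP* transgene. Live cells were sorted into DsRed-positive cells, with or without GFP, and GFP-positive cells, and each sort gave 1 single-cell RNA library, called *sox10:DsRed*-enriched and *trps1:eGFP*-enriched. Chondrocytes can carry either reporter, but many lack DsRed, and GFP is also found in other mesenchyme, so the sorts set which cell types each library could hold. Each sort was sequenced once, without a replicate, so no test was made, and every interval is an exact 95% interval that covers counting error only.

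Aggrecan is the large proteoglycan of cartilage, and its chondroitin sulfate chains hold the water that lets the tissue bear load. Matrilins are multi-subunit adaptor proteins that link collagen fibrils to proteoglycans. The other genes of the set are known mainly from mammals: *snorc* encodes a transmembrane chondroitin sulfate proteoglycan of chondrocytes, *cnmd* encodes chondromodulin, which restrains blood vessel growth into cartilage, and *mia* encodes a small protein that chondrocytes secrete.

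The *sox10:DsRed*-enriched library held 462 barcodes with 1073482 unique molecular identifiers (UMIs, each standing for a transcript molecule), at a median of 1281.5 per barcode, and the *trps1:eGFP*-enriched library held 4876 barcodes with 17424489 UMIs, at a median of 3054.5. After the limits on genes and mitochondrial RNA and the removal of epithelial-like and endothelial-like cells, 241 and 3528 cells fell into 15 clusters. The 9 genes were kept out of the features that built the clusters and out of the markers that named them. There were 158 chondrocyte-like cells, with UMIs of all 9 chondrocyte markers (*col2a1a*, *sox9a*, *sox10*, *sox5*, *sox6*, *col9a1a*, *col9a2*, *col11a2* and *ucmab*) in each of their subclusters, 118 superficial chondrocyte-like cells, 259 cells of the osteoblast lineage, 3198 connective tissue cells and 36 glia-like cells. The superficial cells carried *prg4b*, *vcana* and *clu*, while the other 3 markers of their list, *prg4a*, *erg* and *gdf5*, were at 0, and they also held UMIs of all 6 epithelial markers at a summed 5223 CPM. CPM is the UMIs of a gene per 1000000 UMIs of the cells named. The ligamentocyte-like cells of the same library had 3062 CPM of these epithelial markers, and what they add to the superficial values was not tested. Among the 158 chondrocyte-like cells, 155 had been sorted by DsRed, while none of the superficial cells had, so the comparison of these classes over both libraries mixes library with cell type, and within 1 library it rests on 3 chondrocyte-like cells. The libraries share 16 barcode sequences, and doublets could not be called.

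Summed over the 9 genes, chondrocyte-like cells stood at 23182 CPM (22743 to 23627). The sums were 12.3 CPM in superficial cells (3.98 to 28.6, 5 UMIs in all), 81.7 CPM in the osteoblast lineage (68.4 to 96.9) and 19.4 CPM in connective tissue (17.0 to 22.1). The set thus separated the chondrocyte-like cells from each other class by a wide margin, at 1892-fold over superficial cells (810 to 5828), 284-fold over the osteoblast lineage (239 to 339) and 1193-fold over connective tissue (1048 to 1364). Not all 9 genes took part: 6 followed this pattern, and *matn3a*, *matn3b* and *matn4* did not.

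**Figure D1:**
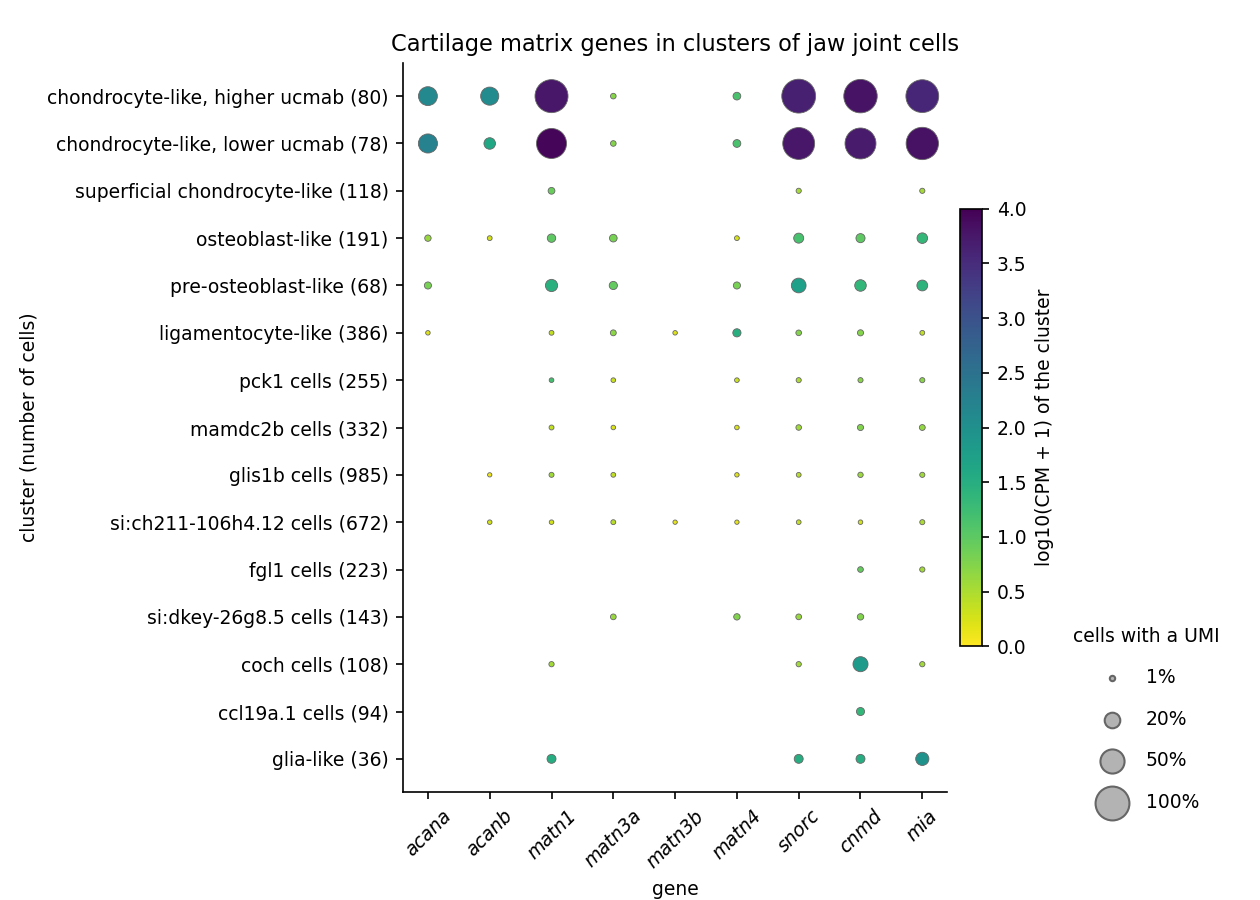
Level of each of the 9 genes in each of 15 clusters of jaw joint cells, 1 row per cluster with its number of cells and 1 column per gene. Colour gives log10(CPM + 1), dot size the percent of cells where the gene had a UMI, and no dot means 0 UMIs; the strong signals of *acana*, *acanb*, *matn1*, *snorc*, *cnmd* and *mia* lie in the 80 and 78 cells of the chondrocyte-like rows, and the largest dot outside them is *cnmd* in the 108 cells of the cluster led by *coch*.

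The aggrecan genes were found in a minority of chondrocyte-like cells. *acana* had 69 UMIs in 48 of the 158 cells (30.4%, 23.3 to 38.2), at 151 CPM (117 to 191). *acanb* had 37 UMIs in 30 cells (19.0%, 13.2 to 26.0), at 80.8 CPM (56.9 to 111). When every cell was thinned to 1000 UMIs, 14.0% held *acana* and 8.28% held *acanb*, so a cell without a UMI cannot be read as a cell without the transcript. Outside the chondrocyte-like cells both were close to absent. Neither had a UMI in the 118 superficial cells, where 3 UMIs would be 7.35 CPM, so *acana* was at least 20.5-fold and *acanb* at least 11.0-fold higher in chondrocyte-like cells, with the floor taken over the whole class. In the 3198 connective tissue cells *acana* had 1 UMI and *acanb* had 3, and in the 259 osteoblast-lineage cells they had 6 and 1. Both paralogs were found in 12 chondrocyte-like cells, out of the 48 with *acana* and the 30 with *acanb*.

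Among the matrilins, *matn1*, the classical cartilage matrilin, was found in 137 of the 158 chondrocyte-like cells (86.7%, 80.4 to 91.6), at 7152 CPM (6909 to 7402), and in 84.1% of them at 1000 UMIs per cell. It was found in 3 of 118 superficial cells (2.54%, 0.527 to 7.25; 7.35 CPM), and in 0.817% of epithelial-like cells (0.169 to 2.37), a type not expected to make it, so the intervals overlapped. Median depth was 3103.5 UMIs in the superficial and 5904 in the epithelial-like cells. The 31 *matn1* UMIs in connective tissue came from 15 of 3198 cells, and 14 of them sat in 1 cell of the cluster led by *pck1*, so the 14.8 CPM of that cluster rests on that cell.

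The other matrilins did not follow *matn1*. *matn4* had 6 UMIs in 6 chondrocyte-like cells (13.1 CPM, 4.81 to 28.5) and none in superficial cells, and its ratio of chondrocyte-like cells over connective tissue was 3.05 (1.07 to 7.09). Its highest level of the 15 clusters was in the ligamentocyte-like cluster, led by *ogna*, at 28.7 CPM (20.8 to 38.5), an interval that overlaps that of chondrocyte-like cells. There it was found in 17 of 386 cells (4.40%, 2.59 to 6.96; 2.33% at 1000 UMIs), against 0 of 367 epithelial-like cells, where a limit of 3 cells with a UMI would be 0.817%. Of its 44 UMIs in that cluster, 25 were in 3 cells. *ucmaa* was found in 13 of the 17 cells with *matn4* (76.5%) and in 103 of the 369 without it (27.9%), at median depths of 4554 and 3472 UMIs. Of the markers that named the cluster, *tnmd*, *scxa* and *thbs4a* were found in 11, 5 and 4 of these 17 cells and in 150, 31 and 79 of the 369. Most cells of the cluster thus held no UMI of *scxa* or *thbs4a*, with or without *matn4*. *matn3a* was thinly spread: its 31 UMIs over the 15 clusters were each in a separate cell, with 10 in the osteoblast lineage (6.19 CPM, 2.97 to 11.4), 2 in chondrocyte-like cells (4.37 CPM, 0.529 to 15.8) and 19 in connective tissue (1.57 CPM, 0.946 to 2.45). Its share of osteoblast-lineage cells, 3.86% (1.87 to 6.99), had an interval that overlapped that of epithelial-like cells, 1.91% (0.770 to 3.89). *matn3b* had 2 UMIs in the whole set of clusters, both in connective tissue, and none in the 158 chondrocyte-like cells, where a limit of 3 cells with a UMI would be 1.90%.

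*snorc*, *cnmd* and *mia* were found in nearly every chondrocyte-like cell. *snorc* was in 149 of 158 cells (94.3%, 89.5 to 97.4) at 5008 CPM, *cnmd* in 143 (90.5%, 84.8 to 94.6) at 5678 CPM, and *mia* in 146 (92.4%, 87.1 to 96.0) at 5095 CPM. At 1000 UMIs per cell the shares were 89.2%, 86.0% and 91.1%. In the 118 superficial cells *snorc* and *mia* had 1 UMI each and *cnmd* none, which puts *cnmd* at least 772-fold higher in chondrocyte-like cells. The ratio was 2043 for *snorc* (366 to 80741) and 2079 for *mia* (373 to 82149), the width reflecting the single UMI.

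*matn1*, *snorc*, *cnmd* and *mia* were mostly carried by the same cells. All 4 were found in 128 of the 158 chondrocyte-like cells (81.0%), in 111 of 157 at 1000 UMIs (70.7%), in none of the superficial and osteoblast-lineage cells, and in 2 of 3198 connective tissue cells. Of the 143 cells with *cnmd*, 142 held *snorc*. Of the 30 cells with *acanb*, all held *snorc*, *cnmd* and *mia*, and 29 held *matn1*. Over all 158 cells, 149 held *snorc*, 143 *cnmd*, 146 *mia* and 137 *matn1*, so most of any 30 cells would hold them. Over the 158 cells, which share their library almost throughout, *matn1* went most closely with *col2a1a*, the type II collagen gene (Spearman correlation of 0.79 between CPM values, 0.69 after thinning), followed by *cnmd* (0.65 and 0.57). *matn1* also went with the depth of the cell (0.47 and 0.41).

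The 3 chondrocyte-like cells of the *trps1:eGFP*-enriched library show the set outside the DsRed sort. They held 112, 38 and 12 *mia* UMIs, 46, 18 and 12 *cnmd* UMIs, and 19, 5 and 6 *snorc* UMIs. *matn1* was at 0, 0 and 15 UMIs in the same cells, so 2 of them had no UMI of it although their *mia* and *cnmd* were strong. *col2a1a* was at 40, 0 and 0 UMIs and the GFP transcript at 3, 0 and 0, so 2 of the 3 cells held neither. DsRed was at 0 UMIs in all 3. The 6 superficial markers summed to 209 CPM in the lower-*ucmab* subcluster, which holds these cells. In its *sox10:DsRed*-enriched cells alone they summed to 19.0 CPM, so the 3 cells carried most of these UMIs. What this means for their identity was not tested. Summed over the set they stood at 20178 CPM (17915 to 22648), against 12.3 CPM in the 118 superficial cells of the same library, a ratio of 1647 (698 to 5110) that rests on these 3 cells.

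The chondrocyte-like cells split into a subcluster of 80 cells with more *ucmab* (1199 CPM), all from the *sox10:DsRed*-enriched library, and a subcluster of 78 cells with less (835 CPM). *ucmab* was found in 72.5% and 30.8% of their cells, and 75 of its 188 UMIs in the lower-*ucmab* subcluster were in 1 cell. *ucmab* encodes a vitamin K-dependent cartilage protein. *ihha*, which encodes the Indian hedgehog ligand that pre-hypertrophic chondrocytes release, ran the other way, at 25.8 CPM in the higher-*ucmab* and 453 CPM in the lower-*ucmab* subcluster. The question of the comparison is whether the matrix genes follow this division of chondrocyte subtypes. They did so unequally. *mia* was at 3686 CPM in the higher-*ucmab* and 6551 CPM in the lower-*ucmab* subcluster, a ratio of 0.56 (0.52 to 0.61). *matn1* was at 5637 and 8719 CPM (ratio 0.65, 0.60 to 0.69) and *snorc* at 4391 and 5645 CPM (0.78, 0.72 to 0.85). *cnmd* was at 6264 and 5072 CPM, a ratio of 1.23 (1.14 to 1.34), and so lay on the side of *ucmab*. These ratios are of pooled UMIs, and the shares of cells with a UMI did not follow them for *mia*, *matn1* and *snorc*. In higher-*ucmab* and lower-*ucmab* cells the shares were 95.0% and 78.2% for *matn1* and 100% and 88.5% for *snorc*. They were 93.8% and 91.0% for *mia*, and 97.5% and 83.3% for *cnmd*. Of the 1963 *matn1* UMIs in the lower-*ucmab* subcluster, 198 and 154 were in 1 cell each. Where other settings gave a further subcluster of lowest *ucmab*, the ratios of the subcluster of highest *ucmab* over it with 20 dimensions and with a minimum of 200 genes were 1.66 and 0.95 for *mia*, 4.01 and 4.55 for *matn1*, 1.80 and 3.65 for *snorc*, and 2.92 and 5.64 for *cnmd*. Among cells with at least 2 *col2a1a* UMIs, a restriction chosen after the data were seen, the ratio was 1.08 for *cnmd* (0.997 to 1.17), 0.54 for *matn1* and 0.51 for *mia*. In these cells *ucmab* itself had a ratio of 1.18 (0.969 to 1.43), which includes equal levels, while that of *ihha* was 0.058 (0.021 to 0.132).

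The aggrecan paralogs had unlike ratios in this split, although no contrast between the paralogs was made. *acanb* had 28 UMIs in the higher-*ucmab* and 9 in the lower-*ucmab* subcluster, at 120 CPM (79.9 to 174) and 40.0 CPM (18.3 to 75.9), a ratio of 3.01 (1.38 to 7.25). Among cells with at least 2 *col2a1a* UMIs it was 2.14 (0.962 to 5.24), which includes equal levels. *acana* had 30 and 39 UMIs, a ratio of 0.74 (0.45 to 1.23), so a difference in either direction was not detectable at this depth. Against the subcluster of lowest *ucmab* under a minimum of 200 genes, the ratio was 1.85 for *acanb* (0.643 to 7.26) and 4.38 for *acana* (1.12 to 37.7). At 1000 UMIs per cell, *acanb* was found in 12.5% of higher-*ucmab* and 3.90% of lower-*ucmab* cells, and *acana* in 15.0% and 13.0%. In cells with over cells without a *ucmab* UMI, the paralogs were alike. The ratio was 1.54 for *acana* (0.91 to 2.66) and 1.42 for *acanb* (0.70 to 3.04), and both intervals include equal levels.

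**Figure D2:**
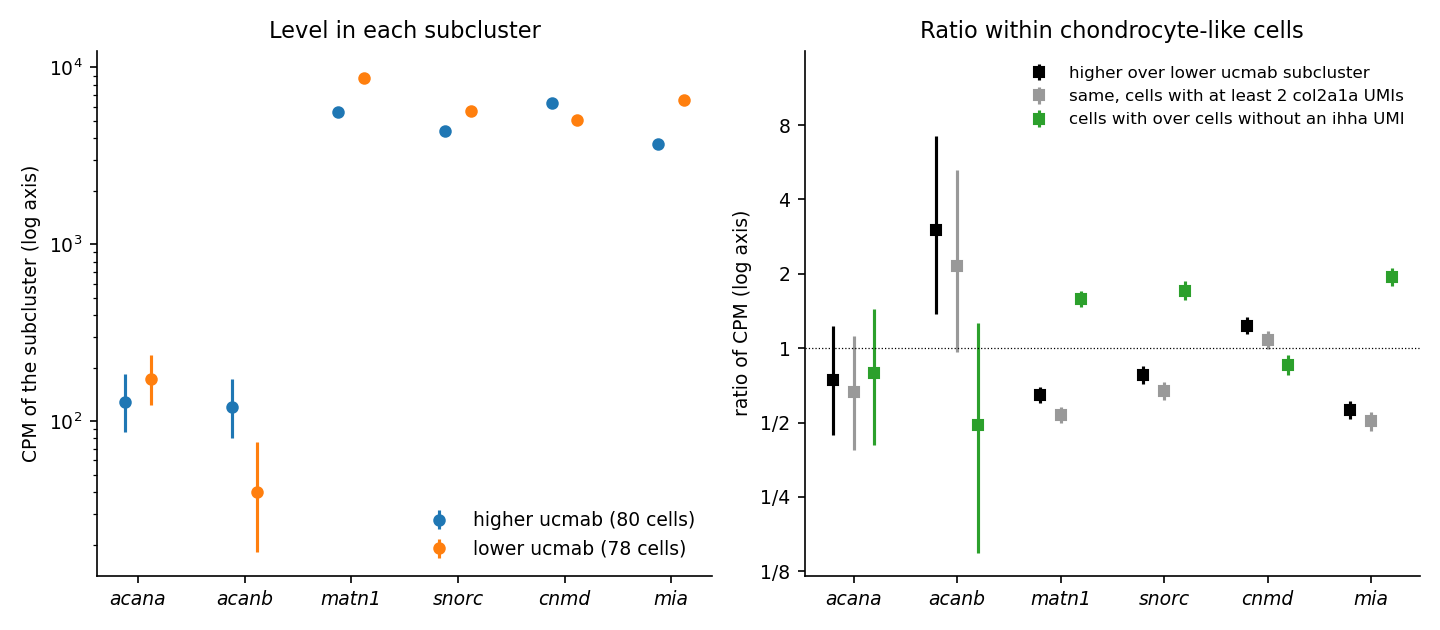
Left: CPM (log axis) of 6 genes in the higher-*ucmab* (blue, 80 cells) and the lower-*ucmab* (orange, 78 cells) chondrocyte-like subcluster, with exact 95% Poisson intervals. Right: ratio of CPM (log axis) with its interval, between the subclusters (black), the same in cells with at least 2 *col2a1a* UMIs (grey), and between cells with and without an *ihha* UMI (green); *mia*, *matn1* and *snorc* lie below 1 by subcluster and above 1 with *ihha*, and *cnmd* and *acanb* lie on the other sides, although the *ihha* interval of *acanb* includes 1.

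Dividing the 158 cells by *ihha* itself gave a like order. The 36 cells with an *ihha* UMI had 8074 CPM of *mia*, against 4139 CPM in the 122 cells without (ratio 1.95, 1.79 to 2.12). The ratios were 1.71 for *snorc* (1.57 to 1.86), 1.59 for *matn1* (1.47 to 1.71), 1.21 for *col2a1a* and 0.86 for *cnmd* (0.78 to 0.94). Dividing by *ucmab* gave less: in the 82 cells with a *ucmab* UMI over the 76 without, the ratio was 0.97 for *matn1* (0.90 to 1.04), 0.88 for *snorc* (0.81 to 0.95), 0.70 for *mia* (0.65 to 0.76) and 1.33 for *cnmd* (1.23 to 1.44). By pooled CPM, *cnmd* therefore went with *ucmab* and *mia* with *ihha* in these 3 divisions of the cells, while the place of *matn1* depended on which gene made them. The divisions overlap, since 33 of the 36 cells with *ihha* were in the lower-*ucmab* subcluster. Cell by cell, the Spearman correlation was 0.24 for *cnmd* with *ucmab* (0.15 after thinning) and 0.32 for *mia* with *ihha* (0.13). *cnmd* went more closely with the depth of the cell (0.44 and 0.43). With a minimum of 200 genes per cell, *cnmd* in the subcluster of highest *ucmab* over that of highest *ihha* had a ratio of 0.92 (0.85 to 0.99), below 1. With 20 dimensions *cnmd* was close in the corresponding subclusters, at 6944 and 6791 CPM.

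The lower-*ucmab* subcluster was the more uneven. The 9 genes took a median of 1.96% of the UMIs of its cells, with a range of 0 to 6.95%, against a median of 1.75% and a range of 0.377 to 3.95% in the higher-*ucmab* subcluster. Of its 78 cells, 9 had under 0.2% of their UMIs on the set, a limit chosen after the data were seen, at a median depth of 1376 UMIs against 2502 in the other 69. Pooled, these 9 cells held 28000 CPM of the bone matrix gene *spp1*, 2096 CPM of *col10a1a* and 107 CPM of *col2a1a*, against 1883, 1491 and 5989 CPM in the other 69. *spp1* was found in only 4 of the 9, *col10a1a* in 3, *col2a1a* in 2 and DsRed in 6. The chondrocyte marker *sox9a* went the other way from *col2a1a*, at 591 CPM in the 9 cells (found in 5) against 131 CPM in the other 69. *sox10* was at 53.7 CPM (found in 1) against 194 CPM, and what type these 9 cells are was not tested. The 9 osteoblast markers as a whole summed to 8572 CPM in the lower-*ucmab* subcluster (7 of 9 found) and 855 CPM in the higher-*ucmab* one (4 of 9 found), and their part in the member values was not tested. The ratio of the summed set, higher-*ucmab* over lower-*ucmab*, was 0.77 (0.74 to 0.80), but its direction depended on how the subclusters were drawn. With 20 dimensions in place of 38, or with a minimum of 200 genes in place of 500, there were 3 chondrocyte-like subclusters, and that of lowest *ucmab* held 9248 and 7301 CPM of the set, at median depths of 1946 and 1020 UMIs. Set against it, the subcluster of highest *ucmab* was 2.47-fold and 2.65-fold higher. Set against the subcluster of highest *ihha*, at 35396 and 34495 CPM of the set, it was lower, with ratios of 0.65 and 0.56.

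**Figure D3:**
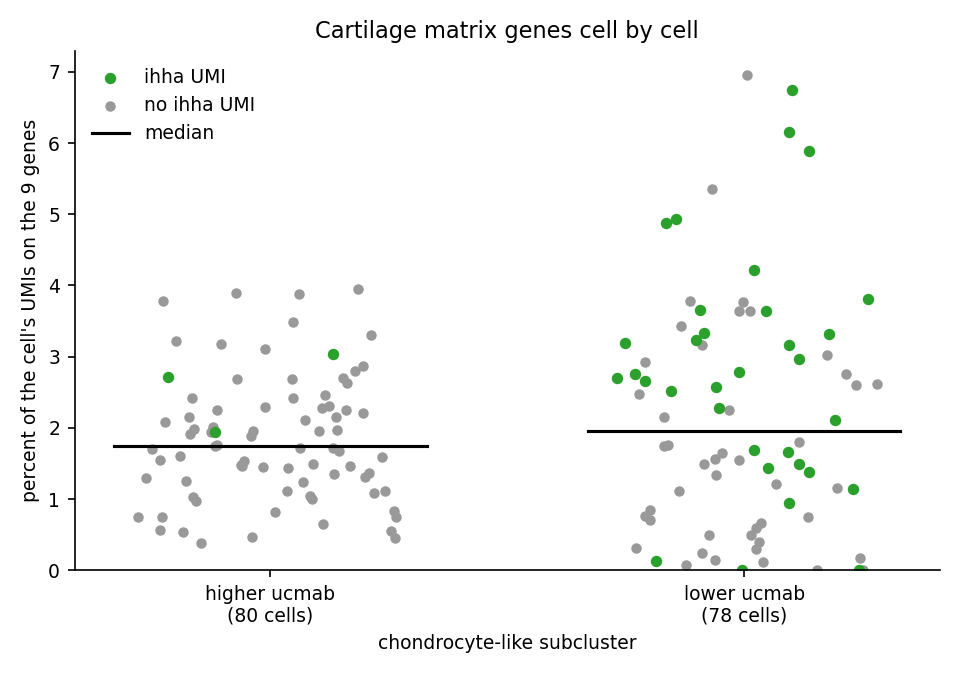
Percent of the UMIs of each chondrocyte-like cell on the 9 genes, by subcluster (80 and 78 cells), 1 point per cell, green with and grey without an *ihha* UMI, with the median as a line. The medians lie close, at 1.75% and 1.96%, while the lower-*ucmab* cells spread from 0 to 6.95% and hold 33 of the 36 cells with *ihha*.

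In the osteoblast lineage the set was found at a low level that followed the library. Osteoblast-lineage cells had 323 CPM of the set in the *sox10:DsRed*-enriched library (260 to 396, 46 cells) and 30.1 CPM in the *trps1:eGFP*-enriched library (21.5 to 41.0, 213 cells). Glia-like cells of the *sox10:DsRed*-enriched library, which have no known part in cartilage matrix, had 194 CPM (100 to 339, 35 cells), and epithelial-like cells of the *trps1:eGFP*-enriched library had 13.0 CPM (8.64 to 18.8, 366 cells). Within the *sox10:DsRed*-enriched library, *snorc* was found in 16 of 46 osteoblast-lineage cells (34.8%, median depth 4094 UMIs) and 2 of 35 glia-like cells (5.71%, median depth 1306 UMIs), and at 1000 UMIs in 4.35% and 3.03%. Over both libraries, the highest level outside chondrocyte-like cells was in pre-osteoblast-like cells for *snorc*, at 55.1 CPM (33.6 to 85.0), and in glia-like cells for *mia*, at 92.9 CPM (34.1 to 202), and *matn1*, at 31.0 CPM (3.75 to 112). Each of these intervals overlapped that of the next cluster. Within the *sox10:DsRed*-enriched library *matn1* reached 0.617% of the chondrocyte-like CPM in osteoblast-like, 0.937% in pre-osteoblast-like and 0.439% in glia-like cells. *mia* reached 2.25%, 1.41% and 1.98%, and *cnmd* 1.02%, 1.08% and 0.568%. *snorc* was highest in pre-osteoblast-like cells, at 2.70% (1.60 to 4.28), with 1.14% in osteoblast-like and 0.633% (0.0766 to 2.29) in glia-like cells, and the intervals overlap. In the *sox10:DsRed*-enriched library the interval of the osteoblast-lineage level of the set thus overlapped that of glia-like cells. Such an overlap does not show equal levels, and the ratio of these classes was not computed. In the *trps1:eGFP*-enriched library the interval of the osteoblast-lineage level lay above that of epithelial-like cells. Free RNA and doublets were not tested as sources of either. The DsRed transcript stood at 20.9%, 23.2% and 22.1% of its chondrocyte-like CPM in the same 3 classes.

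**Figure D4:**
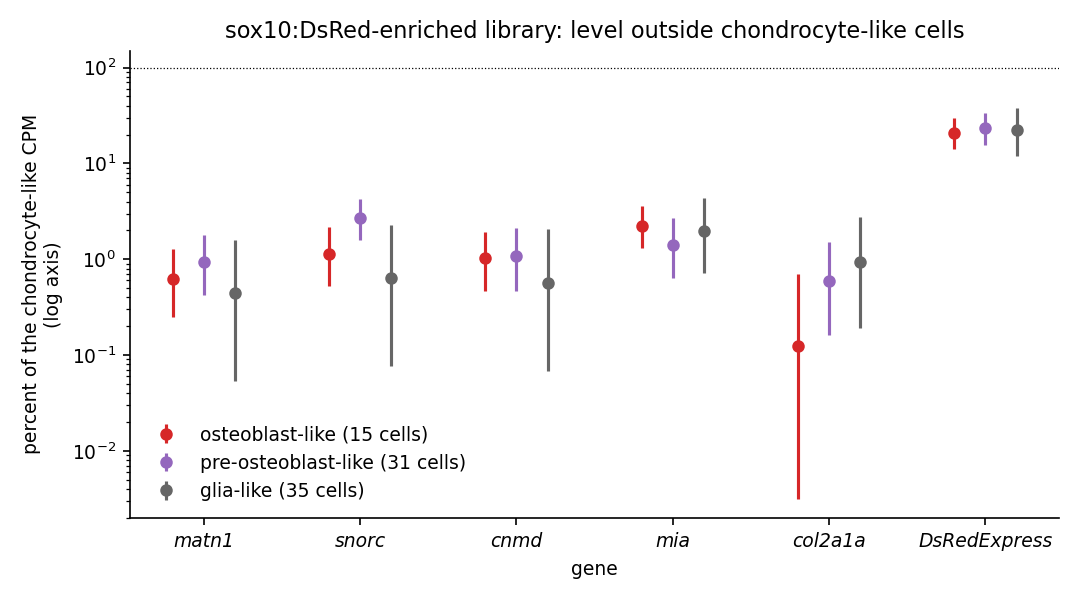
Level of *matn1*, *snorc*, *cnmd*, *mia*, *col2a1a* and the DsRed transcript in 15 osteoblast-like, 31 pre-osteoblast-like and 35 glia-like cells of the *sox10:DsRed*-enriched library, as percent of the chondrocyte-like CPM of that library (log axis, dotted line at 100%), with exact 95% intervals. The cartilage genes lie between 0.125% and 2.70% in all 3 classes with overlapping intervals, and DsRed lies between 20.9% and 23.2%.

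Of the set, *cnmd* was found at full depth in the largest share of cells of any cluster outside the chondrocyte-like cells. In the cluster of 108 connective tissue cells led by *coch*, *cnmd* had 25 UMIs in 20 cells (18.5%, 11.7 to 27.1), at 64.5 CPM (41.8 to 95.3). *snorc* in pre-osteoblast-like cells was close, at 17.6% (9.47 to 28.8). At 1000 UMIs per cell *cnmd* was found in 6.54% of the *coch* cluster, below *mia* in glia-like cells, which was in 4 of 34 (11.8%). No cell of this cluster held more than 3 *cnmd* UMIs. Epithelial-like cells of greater depth had it in 1.09% (0.298 to 2.77), and 0.545% at 1000 UMIs. At 1000 UMIs it was also in 5.88% of glia-like and 4.41% of pre-osteoblast-like cells. Their levels, 31.0 CPM (3.75 to 112) and 22.0 CPM (9.51 to 43.4), have intervals that overlap that of the *coch* cluster. Among the 20 cells, 1 held *mia* and none held *matn1*, *snorc* or *col2a1a*, so *cnmd* was not accompanied by the rest of the set there. *grem1a*, which encodes a bone morphogenetic protein antagonist and was picked after its values were seen, was found in 11 of the 20 cells (55.0%) and in 26 of the 88 without *cnmd* (29.5%), at median depths of 4001 and 3195.5 UMIs. The next level in connective tissue was 22.3 CPM in the 94 cells led by *ccl19a.1* (9.63 to 44.0), an overlapping interval, but 7 of its 8 UMIs were in 3 cells. In the ligamentocyte-like cluster, which carries its close relative *tnmd*, *cnmd* was at 4.56 CPM (1.83 to 9.39).

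**Figure D5:**
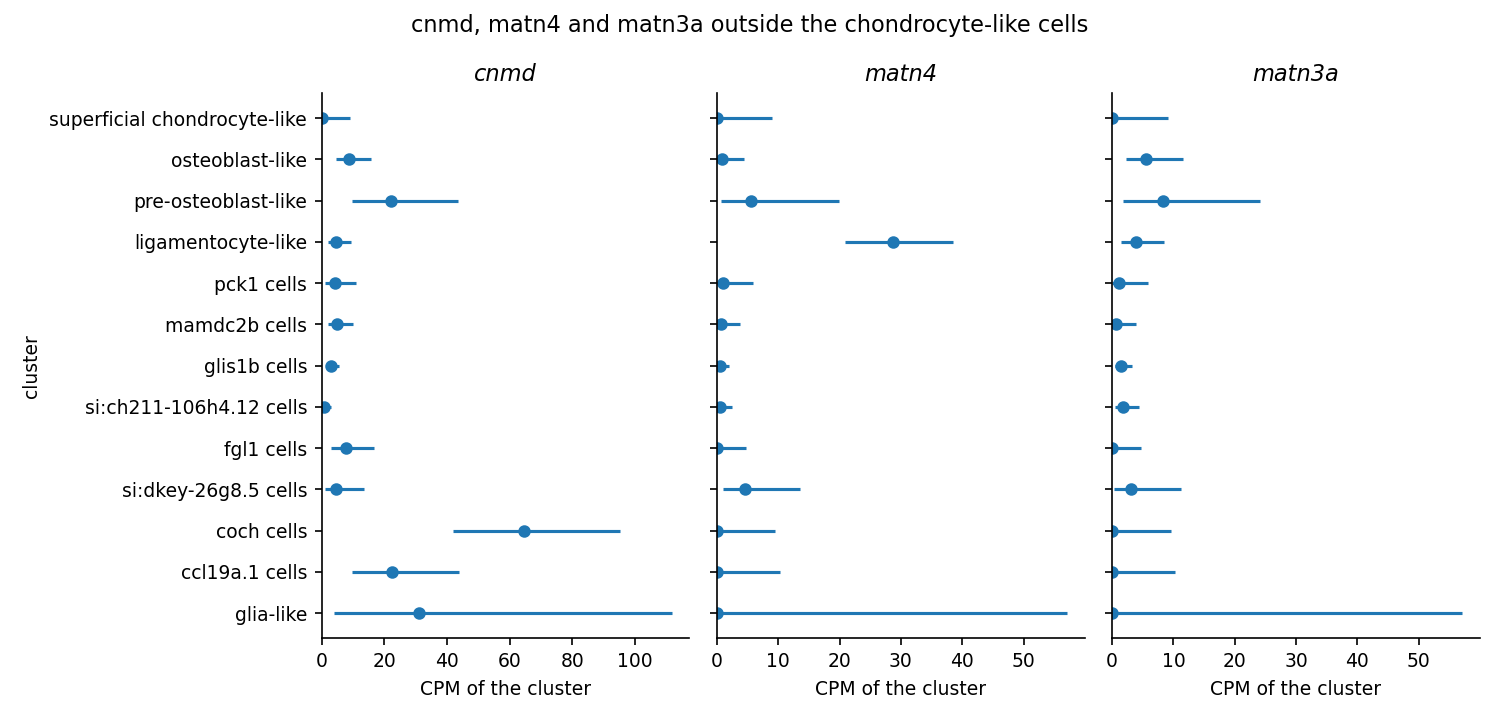
CPM of *cnmd*, *matn4* and *matn3a* in the 13 clusters outside the chondrocyte-like cells, with exact 95% Poisson intervals (each panel has its own linear axis). *cnmd* stands out in the *coch* cells (64.5 CPM) and *matn4* in the ligamentocyte-like cells (28.7 CPM), the intervals of *matn3a* overlap throughout, and those of the 36 glia-like cells are wide in every panel.

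The genes most alike in level over the 15 clusters, by Pearson's r of log2(CPM + 10) among 2248 other genes that reached 100 CPM in a cluster, were for *matn1* *col2a1a* (r of 0.99), *col9a3* and *snorc*, for *snorc* *matn1*, *mia* and *fgfbp2b*, and for *mia* *col2a1a*, *snorc* and *matn1*. *cnmd* was nearest to *tnxba* (0.97), *col9a2* and *fgfbp2b*. The aggrecan genes had different neighbours. *acanb* went with *lad1*, *ptgdsa* and *pax9*, which were at 211, 137 and 335 CPM in the higher-*ucmab* and 66.6, 40.0 and 160 CPM in the lower-*ucmab* subcluster, and *acana* with *foxa3*, *si:dkey-6n6.1* and *sept8b*, which were at 150, 576 and 77.3 CPM and at 329, 1848 and 115 CPM. These r values rest mainly on the chondrocyte-like clusters, where all of these genes are highest. The neighbours of *acana* (76 UMIs) and *acanb* (41 UMIs) thus repeat the levels of each paralog in the subclusters. They are no separate support for a difference between the paralogs. For *matn4* (highest r 0.83, with *sat1b*) and *matn3a* (0.82, with *ssr1*) few UMIs carry the pattern.

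Because the design has no replicate, genes were called by size: at least 4-fold after 10 CPM had been added to both classes, among genes with at least 10 UMIs in the classes compared. In chondrocyte-like over superficial cells, 6 of the 9 genes reached the minimum and all 6 were higher, with a median log2 difference of 8.67, against 5.31% of the 5236 genes tested higher, 7.43% lower and a median of -0.04. Against the osteoblast lineage 6 of 7 were higher and none lower (background 5.42% higher and 2.36% lower), and within the *sox10:DsRed*-enriched library 6 of 6 were higher (background 10.5% higher and 3.34% lower). Against connective tissue 6 of 8 were higher and none lower (background 2.14% higher and 2.71% lower). *matn3a* was below the fold in both, at a log2 difference of -0.17 against the osteoblast lineage and 0.31 against connective tissue, and *matn4* was at 0.69 against connective tissue. Between the subclusters of higher and lower *ucmab*, none of the 6 measured genes passed the fold in either direction (background 0.455% higher and 3.04% lower).

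A wider list of 29 cartilage matrix genes, of which 26 are in the files, was mostly on the same side as the set. In chondrocyte-like cells 12 of 18 measured were higher than in superficial cells and 3 lower, with a median log2 difference of 5.35, 12 of 18 were higher than in the osteoblast lineage and 1 lower, and 12 of 22 were higher than in connective tissue and 4 lower. Over all genes tested, 5.31%, 5.42% and 2.14% were higher and 7.43%, 2.36% and 2.71% lower. Of the 12 higher genes, 5, 4 and 5 in the 3 comparisons were markers that named the chondrocyte-like class (*ucmab*, *col2a1a*, *col9a1a*, *col9a2* and, except against the osteoblast lineage, *col11a2*), so their direction followed from the naming. The other higher ones included the cartilage collagen *col11a1a* (1537 CPM in chondrocyte-like and 2.45 CPM in superficial cells), the small leucine-rich proteoglycan *epyc* (448 and 0 CPM) and *hapln1b*, a link protein that anchors aggrecan to hyaluronan (76.4 and 0 CPM). Its paralog *hapln1a* was lower, at 4.37 CPM in chondrocyte-like cells, against 118 CPM in superficial cells and 1622 CPM in connective tissue. *mgp*, an inhibitor of calcification, was at 142 CPM in chondrocyte-like and 8732 CPM in superficial cells. In the higher-*ucmab* over the lower-*ucmab* subcluster, 3 of 15 were lower and none higher (background 3.04% lower and 0.455% higher): *chad* (51.6 and 848 CPM), *mgp* (1 and 64 UMIs) and *susd5* (1 and 12 UMIs).

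Of 29 genes that make, sulfate or supply chondroitin sulfate, the chains aggrecan carries, 28 are in the files. In chondrocyte-like cells 6 of 9 measured were higher than in superficial cells, 4 of 14 than in the osteoblast lineage and 4 of 22 than in connective tissue, and none was lower. Over all genes tested, 5.31%, 5.42% and 2.14% were higher. The median log2 differences were 2.11, 1.31 and 0.67, beside -0.04, 0.30 and -0.11 over all genes tested. *xylt1*, which starts the chains, *csgalnact1a*, which commits them to chondroitin, and the sulfotransferases *chst11* and *chst3a* were higher in each of the 3. *chst11* was at 579 CPM in chondrocyte-like cells, against 12.3 CPM in superficial cells, 64.4 CPM in the osteoblast lineage and 19.3 CPM in connective tissue. *chst3a* was at 100.5 CPM in chondrocyte-like cells, against 0 UMIs in each of the other 3 classes. Of the proteases known to cleave aggrecan or its relatives, 6 were measured against connective tissue, of which 2 were lower and none higher in chondrocyte-like cells (background 2.71% lower and 2.14% higher). *adamts1* (6.55 and 128 CPM) and *adamts15b* (0 and 30.0 CPM) were the lower ones. Of 11 chondrocyte transcription factors *sox9a*, *sox5*, *sox6* and *sox10* were higher in chondrocyte-like cells than in connective tissue, but these 4 were also markers that named the class. None was lower (background 2.14% higher and 2.71% lower). Against the osteoblast lineage 3 of 10 measured were higher and 0 lower (background 5.42% and 2.36%). Against superficial cells 1 of 10 was higher and 1 lower (background 5.31% and 7.43%), with a median log2 difference of 0.41. The same 4 naming markers are in the list for these comparisons too, so the counts of higher factors are no separate support.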

How the data were processed

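The deposited UMI counts of 2 libraries made with a 10x 3' kit were used. According to the methods and the submitters' processing notes, the authors counted UMIs per gene with Cell Ranger 3.0.0 on the GRCz11 assembly, using an improved annotation to which both reporter sequences had been added. Barcodes with 500 to 2000 genes and at most 5% mitochondrial UMIs were kept (4161), and 367 epithelial-like and 25 endothelial-like cells were set aside after a first clustering. The limits left out 220 *sox10:DsRed*-enriched and 957 *trps1:eGFP*-enriched barcodes, mostly shallow ones, and this removes low-RNA cells. Cells were clustered in Seurat 5.3.0 (R 4.3.3) on variable features without the 9 genes, with 38 dimensions and a resolution of 0.9, and chondrocyte-like cells were subclustered at 0.5. A cluster took the name of the type with most markers found in at least 5% of its cells and 2-fold over all other cells, with at least 3 markers, a form of the rule set after the data were seen. The superficial class is the cluster of highest *prg4b*, a rule also set after the data were seen. Scrublet (scanpy 1.11.5) marked 2 of 462 and 0 of 4876 barcodes, which is no working doublet call, so the upper gene limit was the only filter.

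UMIs were summed per class with numpy 2.4.6, scipy 1.17.1 and pandas 2.3.3. CPM carries an exact Poisson interval, a share of cells an exact Clopper-Pearson interval and a ratio an exact conditional binomial interval, all at 95%. Where a class had 0 UMIs, 3 counts over the class were the floor. Shares were repeated with cells thinned to 1000 UMIs. The intervals were tested on simulated Poisson counts, and the clustering and naming on simulated, well separated cell types. The simulations lacked the spread between cells seen here and held no subclusters, so they do not bear on the subcluster split. The 9 genes, the lists and the tests were chosen with earlier results of these data known. The genes named beside the 9 are the markers, list genes past the fold, the 3 genes most alike to each and the leading genes of unnamed clusters. Levels are not compared between genes, since no lengths were used.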

Additional observations from a re-analysis of the deposited data

Results flagged for a closer look

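The barcodes left out by the limits belong to no comparison but held UMIs of the set above what a count of 0 allows. In the 220 left-out barcodes of the *sox10:DsRed*-enriched library *mia* was at 508 CPM, *snorc* at 451 CPM, *matn1* at 422 CPM, *cnmd* at 328 CPM and *acanb* at 16.4 CPM. In the 957 of the *trps1:eGFP*-enriched library *mia* was at 99.9 CPM, *matn4* at 17.0 CPM, *matn1* at 14.1 CPM, *cnmd* at 10.4 CPM, *snorc* at 7.40 CPM, *matn3a* at 5.92 CPM and *acana* at 2.96 CPM.

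Of the 135 *mia* UMIs in the left-out barcodes of the *trps1:eGFP*-enriched library, most came from 2 barcodes, with 68 and 39 *mia* UMIs out of 1113 and 636. *mia* thus took 6.11% and 6.13% of their UMIs, against a median of 0.365% and a maximum of 2.78% in the 155 chondrocyte-like cells of the *sox10:DsRed*-enriched library. Both had 0 UMIs of *matn1*, *cnmd*, *col2a1a* and DsRed, and 3 and 1 of *snorc*. They held 462 and 328 genes, under the minimum. The 3 chondrocyte-like cells of their own library had 112, 38 and 12 *mia* UMIs out of 6578, 2373 and 5322. In those cells *matn1* was at 0, 0 and 15 UMIs and *cnmd* at 46, 18 and 12.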

How the results depend on the processing

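Over the alternatives, the values of the main results stayed within the counting interval, or within 1.5 times the count, in 83 cases, left it in 24 and changed direction in 2. For single genes these cases were 156, 63 and 6. The set in chondrocyte-like cells (23182 CPM) was at 23721 CPM with the 9 genes among the variable features, 22441 CPM with a minimum of 200 genes, 24267 CPM without the top 5% of Scrublet scores, 25361 CPM in cells with at least 2 *col2a1a* UMIs and 20178 CPM in the *trps1:eGFP*-enriched library alone. In the osteoblast lineage (81.7 CPM) it was at 112 CPM with the 9 genes among the variable features, 323 CPM in the *sox10:DsRed*-enriched and 30.1 CPM in the *trps1:eGFP*-enriched library alone, and in connective tissue it was at 165 CPM in 5 cells of the *sox10:DsRed*-enriched library.

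The ratio of the set between subclusters (0.77) turned to 2.47 with 20 dimensions and 2.65 with a minimum of 200 genes, where a further subcluster became that of lowest *ucmab*. There *matn1* was at 4.01 and 4.55, *snorc* at 1.80 and 3.65, *mia* at 1.66 and 0.95, *cnmd* at 2.92 and 5.64, and *acana* at 1.36 and 4.38. Against the subcluster of highest *ihha*, a comparison added after the data were seen, the set was at 0.65 and 0.56, and *cnmd* at 0.92 with a minimum of 200 genes. With 20 dimensions *cnmd* was at 6944 CPM in the subcluster of highest *ucmab* and 6791 CPM in that of highest *ihha*. The ratio of the set was 0.66 with the 9 genes among the variable features, 0.81 without the cartilage list among them, 0.74 with no upper limit on genes, 0.64 with up to 10% mitochondrial UMIs, 0.72 without the top Scrublet scores, 0.67 in cells with at least 2 *col2a1a* UMIs, 0.71 without cells under 0.2% (all in the lower-*ucmab* subcluster and chosen by their level of the set, so that the ratio could only fall), 0.96 in cells with over without *ucmab* and 0.68 in cells without over with *ihha*. The cause of these shifts was not tested.

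With a 2-fold limit 8 chondroitin sulfate genes were higher than in the osteoblast lineage and 8 than in connective tissue, and with 1 CPM added 7 were higher than in connective tissue. The share over all genes under these alternatives is not given here, so the larger counts cannot be read as a result about the list. The count of 6 higher members was the same in every alternative of the lists. No paired analysis was possible because each sort has 1 library. Depth limits *acana*, *acanb*, *matn3a*, *matn3b* and *matn4*, whose UMIs are few.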
